A study of Homo sapiens with 33 samples.

Results

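The lipopolysaccharide co-receptor CD14, its partner LY96 (also called MD-2), the Toll-like receptors TLR1, TLR2, TLR4, TLR5, TLR6, TLR7 and TLR8, and the adaptor MYD88 were followed in THP-1 cells, an established human monocytic leukaemia line, by Affymetrix expression array. These 10 genes were taken as a list, with all 16 of their probe sets, out of 19775 genes and 41091 probe sets that name a single gene. Measurements came from 33 arrays, 1 per independent culture well. The vehicle, 0.1% ethanol, was given to 6 wells harvested at 40 h and to 5 harvested at 16 h. In their titles, the 16 h wells and 3 of the 40 h wells are named as controls at 0 h. All-trans retinoic acid (RA), the ligand of the retinoic acid receptors, was given at 20 nM for 2 h (2 wells), 6 h (2 wells), 16 h (3 wells) or 40 h (5 wells, with RA renewed at 16 h). Tumor necrosis factor (TNF) was given at 5 ng per ml for 24 h to 5 wells without RA, for which the labels name no ethanol. Another 5 wells received 20 nM RA for 16 h and then RA and TNF together for 24 h, with harvest at 40 h.

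Toll-like receptors are membrane proteins that recognise conserved microbial products and, through the adaptor MYD88 or its relative TICAM1, activate NF-kB, MAP kinases and interferon regulatory factors. CD14 is a GPI-anchored protein without a signalling domain of its own that hands lipopolysaccharide to the complex of TLR4 and LY96, and it is a standard surface marker of mature monocytes. TLR2 pairs with TLR1 or TLR6 to bind bacterial lipopeptides, TLR5 binds flagellin, and TLR7 and TLR8 sense single-stranded RNA inside endosomes.

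The promoters of 3 members are shown because their calls against vehicle at 40 h differed in the results that follow. TLR5 was called with RA, MYD88 with TNF, and TLR2 only with both agents together. With both agents TLR5 and MYD88 were called too. The interaction was not called for TLR2 (limma adjusted p = 0.238), so its calls do not show that both agents were needed. Each line gives the 250 bases before the start site, 5' to 3' on the strand of the gene, from RefSeq on GRCh38.p14. TLR5 lies at chr1:223143249-223143498 on the minus strand, MYD88 at chr3:38138411-38138660 on the plus strand and TLR2 at chr4:153684030-153684279 on the plus strand. Capitals mark matches to the searched letters.
TLR5: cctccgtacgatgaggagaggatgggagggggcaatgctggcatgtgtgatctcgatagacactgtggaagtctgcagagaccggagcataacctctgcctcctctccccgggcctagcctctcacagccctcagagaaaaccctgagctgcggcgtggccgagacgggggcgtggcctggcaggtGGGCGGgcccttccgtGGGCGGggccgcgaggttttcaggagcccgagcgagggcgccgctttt
MYD88: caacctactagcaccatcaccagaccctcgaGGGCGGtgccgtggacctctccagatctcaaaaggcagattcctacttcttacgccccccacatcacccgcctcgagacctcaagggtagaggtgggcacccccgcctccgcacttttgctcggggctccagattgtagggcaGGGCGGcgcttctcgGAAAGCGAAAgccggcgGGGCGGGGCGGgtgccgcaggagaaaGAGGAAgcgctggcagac
TLR2: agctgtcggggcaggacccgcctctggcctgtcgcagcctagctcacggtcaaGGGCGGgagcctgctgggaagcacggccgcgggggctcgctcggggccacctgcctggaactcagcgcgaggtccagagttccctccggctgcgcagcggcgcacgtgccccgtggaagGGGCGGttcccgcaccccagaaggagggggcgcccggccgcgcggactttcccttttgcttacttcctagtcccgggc
The capitals in the TLR5 and TLR2 windows are GGGCGG, the letters of the SP1 site, found 2 times in each. MYD88 holds GGGCGG at 4 places (a pair of them overlaps by 1 base), a pair of GAAA repeats spaced by 2 bases, the letters of interferon response elements, and GAGGAA of PU.1, the myeloid transcription factor encoded by SPI1. From the CD14 promoter, which belongs to the member with the largest called difference, 2 short stretches of the same table are ggggcgccTGAGTCAtcaggaca, with the AP-1 letters TGAGTCA, and ctggctcgGAGGAAgagaggtg, with the PU.1 letters.

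Windows were present for 7 of the 10 members (CD14, MYD88, TLR2, TLR4, TLR5, TLR6 and TLR8), and both strands were searched. The exact letters AGGTCA, a form of the core site of retinoid receptors, were in 0 of the 7 member windows and in 12.1% of the 35116 windows of the table. Other forms of that site were not searched. Direct repeats of AGGTCA with a spacer of 5 or 2 bases, each in 0.003% of all windows, were in no member window, nor were 3 exact forms of the NF-kB site (0.179%, 0.142% and 0.068%). GAGGAA was in 4 of 7 member windows, against 23.6% of all windows, and GGGCGG in 4 of 7, against 42.6%. TGAGTCA (CD14; 4.2% of all windows), the spaced GAAA pair (MYD88; 3.02%) and TTGCNNAA of C/EBP factors (TLR8; 9.05%) were each in 1 member window. These counts describe letters in short windows and were not tested.

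Values below are signals of the Affymetrix software GCOS in its own units, recovered from the deposited log2 values, and tests were run on the deposited log2 values. Array medians lay between 18.9 and 45.2 units, and values under or near them are dim. A gene entered a test when its mean value over the arrays of that fit reached the median of all probe sets. CD14, LY96, MYD88, TLR1, TLR2, TLR4, TLR5 and TLR8 entered the tests at 40 h, and TLR6 took the place of TLR8 in the time course. TLR5 and TLR8 passed at 40 h through the groups in which they were high, since their vehicle wells lay below the limit, and the vehicle wells of LY96 and TLR1 lay below it too. Errors beside a log2 difference are standard errors, and called genes are those under 0.05 in limma's p after Benjamini-Hochberg adjustment over all genes tested.

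The monocytic label was checked with 10 markers, of which 8 had a probe set. LYZ (mean signal 2338 units), ITGAM (739), CD4 (733), CSF1R (640) and SPI1 (503) were bright, while MPO (31.7) and FCGR1A (22.2), the Fc receptor CD64, were near the array medians. The summed signal of the 8 markers was 3970 to 5755 units in vehicle at 40 h, 4413 to 6042 with RA, 3962 to 5999 with TNF and 5552 to 6466 with both. The lymphocyte markers (5 of 6 found) summed to 231 to 527 units in vehicle, 245 to 348 with RA, 413 to 619 with TNF and 400 to 519 with both, of which NKG7 was the brightest. The erythroid and megakaryocyte markers stayed between 173 and 400 units and the epithelial and fibroblast markers between 46.4 and 215 units over all groups. The array numbers in the labels form 2 runs, called array sets 1 and 2 here. Both sets hold every group at 40 h, and the rest of the time course lies in set 2. In RNA from a whole well, a transcript carried by more cells and more transcript per cell cannot be told apart.

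**Figure D1:**
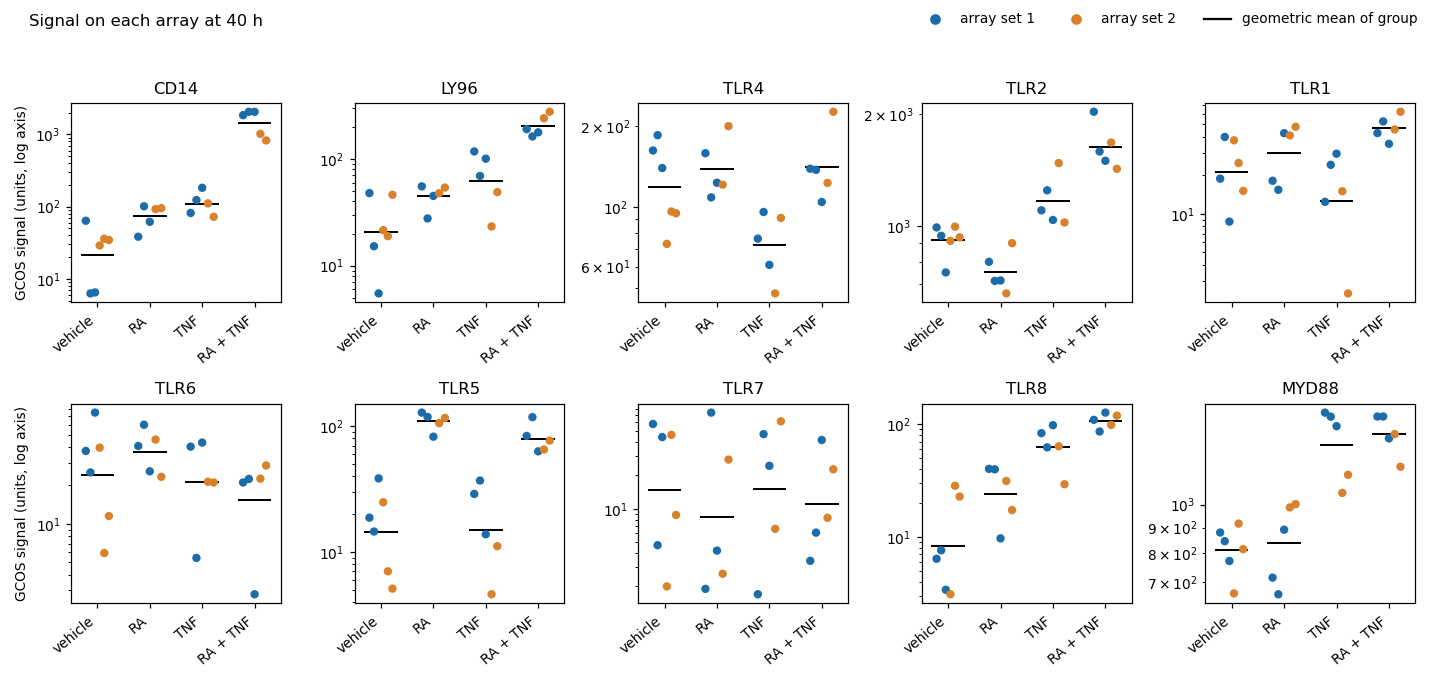
GCOS signal (units, log axis) of the 10 members on each array harvested at 40 h, with 1 panel per gene, points coloured by array set and a line at the geometric mean of each group (vehicle n = 6, RA, TNF and RA plus TNF n = 5 each). CD14 sits between 827 and 2065 units with RA plus TNF and at or below 183 units in the other groups, and TLR5 is high in both groups with RA.

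CD14 transcript was brought up modestly by each agent and strongly by both together. In the vehicle wells at 40 h the signal was 63.9, 6.3, 6.5, 29.1, 36.0 and 34.6 units. With RA it was 38.4, 101, 61.8, 92.6 and 95.5 units, and with TNF it was 81.9, 124, 183, 111 and 72.4 units. With RA plus TNF it reached 1852, 2065, 2058, 1022 and 827 units. Every array with both agents therefore lay far above every other array, the TNF arrays lay above all vehicle arrays, and the RA arrays overlapped with vehicle (with 1 vehicle array in signals and with 3 on the deposited log2 values). The log2 difference from vehicle was 1.82 ± 0.44 for RA (limma, adjusted p = 0.00782), 2.40 ± 0.44 for TNF (adjusted p = 0.000134) and 6.22 ± 0.44 for both (adjusted p = 9.57e-14).

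Because the vehicle signal of CD14 was close to the array medians, the size of its rise depends on how low signals are handled. With 16 units added to each signal before the logarithm, the rise was 1.15 ± 0.30 for RA, 1.63 ± 0.30 for TNF and 5.24 ± 0.30 for both. The step from TNF alone to RA plus TNF rested on brighter signals and was 3.82 ± 0.45 (14.1-fold, limma adjusted p = 9.8e-08). It was 4.14 in array set 1 and 3.34 in array set 2. The other differences varied more between the sets: both agents against vehicle gave 7.31 and 4.85, both against RA 5.21 and 3.18, TNF 3.18 and 1.51, and RA 2.11 and 1.67, all called in each set. The step from RA alone to RA plus TNF was 4.40 ± 0.45 (21.1-fold, limma adjusted p = 3.41e-09). The RA call was lost without the array set in the model (limma adjusted p = 0.0579).

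On the plain signal scale the mean of CD14 rose by 48.5 units with RA, by 85.0 units with TNF and by 1535 units with both, against a sum of 133.5 units for the single agents. On the log2 scale the interaction, which tests a departure from the product of the single effects, was 1.99 ± 0.63 and was not called (unadjusted p = 0.00322, limma adjusted p = 0.236). With 16 units added to the signals it was 2.46 ± 0.43 and was called (limma adjusted p = 0.000966), and it was also called without vehicle replicate 3 (limma adjusted p = 0.0401). Over the 8 groups CD14 had its lowest mean in vehicle at 40 h (29.4 ± 21.5 units, SD, n = 6), followed by RA at 6 h (33.4), RA at 2 h (48.0), vehicle at 16 h (52.7), RA at 16 h (54.2), RA at 40 h (77.9) and TNF (114). Neighbours in that order overlapped, and a gap appeared only before RA plus TNF (1565 ± 595 units, SD, n = 5).

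LY96, the secreted protein that holds lipopolysaccharide on TLR4, was highest with RA plus TNF as well. Its signal was 47.8, 15.2, 5.5, 21.5, 18.9 and 46.1 units in vehicle and 55.3, 27.7, 45.0, 47.7 and 53.9 units with RA. With TNF it was 117, 69.2, 100, 23.3 and 48.8 units, and with both agents 190, 162, 177, 240 and 276 units. All arrays with both agents lay above all others at 40 h, while vehicle, RA and TNF arrays overlapped. The log2 difference from vehicle was 3.44 ± 0.47 with both agents (limma adjusted p = 6.5e-07), 1.65 ± 0.47 with TNF (0.0173) and 1.16 ± 0.47 with RA, which was not called (0.223).

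The TNF effect on LY96 came mainly from array set 1, where it was 2.58, against 0.42 in set 2, where it was not called (limma adjusted p = 0.733). It was not called when vehicle replicate 3, TNF replicate 1 or TNF replicate 3 was left out (adjusted p = 0.0609, 0.0766 and 0.0629). The step from TNF to RA plus TNF was 1.79 ± 0.49 (limma adjusted p = 0.0186). It was not called without TNF replicate 4 (0.0921), TNF replicate 5 (0.0559) or RA plus TNF replicate 5 (0.0517). It was 1.03 in set 1, where it was not called (0.462), and 2.91 in set 2. The step from RA to RA plus TNF was 2.28 ± 0.49 (limma adjusted p = 0.00108) and similar in both sets, 2.31 and 2.24. The interaction was 0.63 ± 0.69 (limma adjusted p = 0.938).

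TLR4, the signalling receptor for lipopolysaccharide, was not called against vehicle under any treatment at 40 h. Its brightest probe set, 224341_x_at, read 162, 185, 140, 72.9, 96.1 and 94.7 units in vehicle and 158, 108, 123, 121 and 200 units with RA. With TNF it read 76.2, 95.7, 60.9, 47.7 and 91.0 units, and with both agents 139, 137, 104, 123 and 226 units. The TNF signals overlapped with vehicle and lay below every RA plus TNF signal, although the deposited log2 values of these 2 groups overlapped. RA plus TNF exceeded TNF alone by 1.03 ± 0.30 (2.04-fold, limma adjusted p = 0.0287), while TNF against vehicle was -0.69 ± 0.29 (0.135) and RA plus TNF against vehicle 0.34 ± 0.29 (0.475). After quantile normalization TLR4 was called lower with TNF (-0.76, adjusted p = 0.0409).

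The call for TLR4 between RA plus TNF and TNF was near the threshold: it was lost with no brightness filter (limma adjusted p = 0.0578) and without the array set in the model (0.0951), and it did not hold without TNF replicate 3 (limma adjusted p = 0.0749), TNF replicate 4 (0.093), RA plus TNF replicate 1 (0.0705) or RA plus TNF replicate 5 (0.122). Within array set 1 the difference was 0.84 (adjusted p = 0.221) and within set 2 it was 1.32 (0.067). The suffix _x of this probe set marks probes that can also match other transcripts, so the other 3 TLR4 probe sets were read beside it in a fit of all bright probe sets. All 4 gave a higher value with RA plus TNF than with TNF: 1.11 ± 0.34 in 221060_s_at (limma adjusted p = 0.0448), 1.79 ± 0.60 in 1552798_a_at (0.073) and 0.96 ± 0.38 in 232068_s_at (0.148). They differed against vehicle, where TNF gave -1.38 ± 0.58 in 1552798_a_at and -0.0012 ± 0.36 in 232068_s_at, neither of them called.

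**Figure D2:**
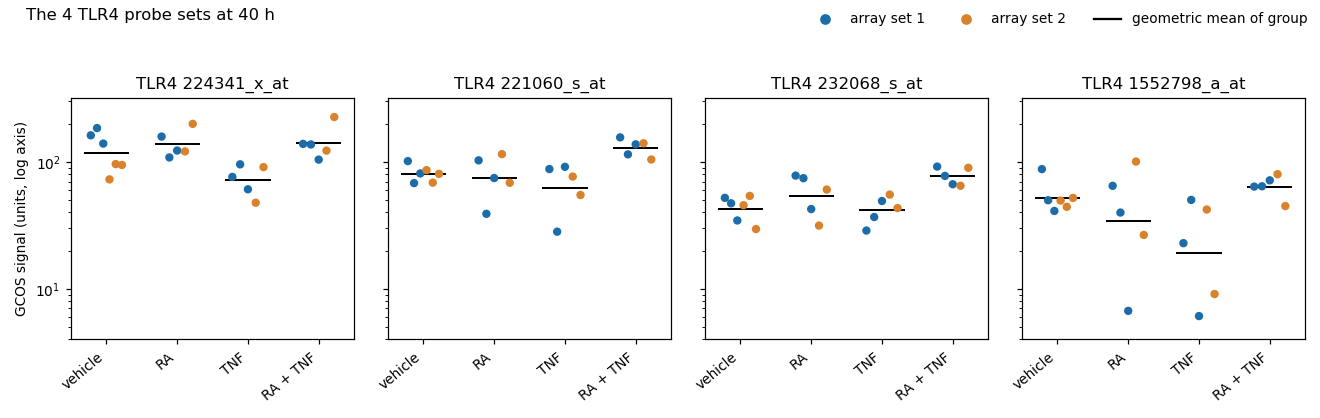
GCOS signal (units, log axis) of the 4 probe sets of TLR4 on each array at 40 h, coloured by array set, with a line at the geometric mean of each group. In each panel the group mean is higher with RA plus TNF than with TNF alone, and the single arrays of 1552798_a_at spread most, down to 6.1 units with TNF.

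TLR2, the lipopeptide receptor, rose with RA plus TNF, against vehicle and against RA alone. Its signal was 750 to 997 units in vehicle (median 937), 658 to 900 units with RA (median 714), 1023 to 1479 units with TNF (median 1103) and 1427 to 2034 units with both (median 1589). Arrays with both agents were above all vehicle and all RA arrays, and overlapped with TNF arrays. The rise was 0.95 ± 0.18 against vehicle (1.93-fold, limma adjusted p = 8.87e-05) and 1.20 ± 0.18 against RA (2.30-fold, 7.42e-06). TNF alone gave 0.40 ± 0.18 (adjusted p = 0.155), RA alone -0.25 ± 0.18 (0.628), and RA plus TNF against TNF 0.55 ± 0.18 (0.0623), none of them called.

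Some of these TLR2 differences lay near the threshold and were called under other settings. The TNF effect on TLR2 was called after quantile normalization (limma adjusted p = 0.0167), as were the difference between RA plus TNF and TNF (0.00596) and the interaction (0.0111). The difference between RA plus TNF and TNF was also called with 16 units added (0.0266) and when vehicle replicate 3, RA replicate 5, RA plus TNF replicate 5 or TNF replicate 4 was left out (adjusted p = 0.0355 to 0.0488). The interaction was 0.80 ± 0.25 on the deposited values (limma adjusted p = 0.238). In signals, TLR2 lost 164 units with RA, gained 257.5 with TNF and gained 725 with both, against a sum of 93.5 for the single agents.

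TLR1 and TLR6, the partners of TLR2, were dim and were not called in any comparison they entered. TLR1 read 8.7 to 39.7 units in vehicle, 15.4 to 47.7 with RA, 2.4 to 29.4 with TNF and 35.1 to 62.4 with both. Every RA plus TNF array lay above every TNF array, with a difference of 1.96 ± 0.73 that did not pass adjustment (limma adjusted p = 0.11). TLR6 fell below the brightness limit at 40 h, with 5.9 to 74.6 units in vehicle and 2.8 to 28.7 with both agents in its brighter probe set, 239021_at. Its other probe set, 207446_at, read at most 50.9 units on any array.

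TLR5, the flagellin receptor, rose with RA, alone or with TNF. The signal was 18.7, 14.5, 38.4, 24.8, 7.0 and 5.1 units in vehicle at 40 h and 128, 118, 82.4, 106 and 116 units with RA. It was 28.9, 36.9, 13.8, 4.6 and 11.1 units with TNF and 83.6, 118, 63.0, 65.2 and 76.7 units with both. Both groups with RA lay above both groups without it, and the groups with and without TNF overlapped. RA raised TLR5 by 2.86 ± 0.52 (limma adjusted p = 0.000232), and RA plus TNF exceeded vehicle by 2.48 ± 0.52 (0.000406) and TNF alone by 2.47 ± 0.54 (0.00184).

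TNF alone gave 0.01 ± 0.52 for TLR5 (limma adjusted p = 0.992), RA plus TNF against RA gave -0.38 ± 0.54 (0.747), and the interaction was -0.39 ± 0.74 (0.972). These misses do not show equality, since the errors span more than 0.5 on the log2 scale. The vehicle signals were below the array medians, and with 16 units added the RA rise was 1.93 ± 0.29 (adjusted p = 7.07e-06). The RA rise was 2.23 in array set 1 and 3.69 in set 2, called in both. RA plus TNF against TNF was not called within either set alone (adjusted p = 0.0633 and 0.05003).

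Across the whole series, the 17 arrays with RA at any time, with or without TNF, read 60.7 to 128 units for TLR5 (median 83.6), and the 16 arrays without RA read 4.6 to 47.1 units (median 21.8). No array crossed over, on the signals or on the deposited values. Of the 12398 genes tested at 40 h, 40 (0.323%) had all arrays with RA above all arrays without it on the deposited values. TLR5 was the one gene of the 10 to do so. For TNF the corresponding share was 0.936% of genes on the deposited values and 1.34% on the signals, and MYD88 alone of the 10 did so, on the signals only (10 arrays at 1055 to 1524 units against 23 arrays at 663 to 1002 units).

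TLR8, an endosomal sensor of single-stranded RNA, rose with TNF, with or without RA. Its brighter probe set, 229560_at, read 6.4, 7.6, 3.4, 3.1, 28.4 and 22.8 units in vehicle and 40.1, 39.7, 9.7, 31.3 and 17.3 units with RA. It read 83.2, 62.2, 97.9, 63.6 and 29.3 units with TNF and 109, 86.0, 126, 98.4 and 119 units with both. In signals the TNF arrays lay above the vehicle arrays, 1 of them by less than 1 unit, and on the deposited log2 values, which were tested, the groups overlapped. TNF gave 2.97 ± 0.61 (limma adjusted p = 0.000682), both agents gave 3.81 ± 0.61 (9.2e-06) and RA alone gave 1.58 ± 0.61, which was not called (0.182).

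The size of the TLR8 rise is uncertain because its vehicle signals were far under the array medians: with 16 units added it was 1.62 ± 0.32 for TNF and 2.29 ± 0.32 for both. The TNF effect was 3.88 in array set 1 and 1.85 in set 2, where it was not called (limma adjusted p = 0.226). RA plus TNF against RA was 2.22 ± 0.64 (adjusted p = 0.0153), not called without RA replicate 3 (0.0599) or within either set. RA plus TNF against TNF was 0.84 ± 0.64 (0.547). The other TLR8 probe set, 220832_at, stayed at or under 14.0 units on all arrays but 3, with 44.2 and 57.3 units in 2 RA plus TNF wells and 42.2 units in 1 well after 16 h of RA.

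TLR7, the other single-stranded RNA sensor, lay under the brightness limit in both experiments and was not tested. Its brighter probe set, 222952_s_at, ranged from 2.0 to 58.1 units in vehicle, 1.9 to 73.6 with RA, 1.7 to 61.5 with TNF and 3.4 to 41.7 with both. Its other probe set, 220146_at, ranged from 1.0 to 34.2 units over these 4 groups. The groups overlapped in both probe sets at the low end of the scale, and the higher medians with TNF in 220146_at were not shared by 222952_s_at. No level is therefore read for TLR7.

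MYD88, the adaptor through which most Toll-like receptors and the interleukin 1 receptor signal, rose with TNF and was not called for RA. Its signal was 666 to 917 units in vehicle (median 830), 663 to 1002 with RA (median 891), 1055 to 1524 with TNF (median 1432) and 1189 to 1497 with both (median 1381). All arrays with TNF lay above all vehicle arrays. TNF gave 0.74 ± 0.18 (1.67-fold, limma adjusted p = 0.00344), both agents 0.87 ± 0.18 (1.83-fold, 0.0003) and RA 0.07 ± 0.18 (0.939).

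RA plus TNF against TNF was 0.13 ± 0.18 for MYD88 (limma adjusted p = 0.79) and the interaction 0.06 ± 0.25 (0.987). RA plus TNF against RA was 0.80 ± 0.18 (adjusted p = 0.00215), from 1.16 in array set 1 and 0.26 in set 2, where it was not called (0.634). The TNF effect was 0.86 in set 1 and 0.55 in set 2, where it was not called (0.12), and it was not called without the array set in the model (0.0598). In signals the gain with both agents, 567.8 units, was near the sum of the single gains, 550.8 units.

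Set beside all genes tested at 40 h, 2 of the 8 members tested were called higher with RA (CD14 and TLR5), against 2.8% of genes. With TNF 4 of 8 were called higher (CD14, LY96, TLR8 and MYD88), against 6.73% of genes. With RA plus TNF 6 of 8 were called higher than vehicle, against 11.7%, the exceptions being TLR1 and TLR4. Against TNF alone 4 of 8 were called higher with RA plus TNF (CD14, LY96, TLR4 and TLR5), against 4.6%, and against RA alone 5 of 8 (CD14, LY96, TLR2, TLR8 and MYD88), against 7.68%. None was called lower in limma (TLR4 with TNF had an unadjusted p under 0.05), where 1.38%, 4.6%, 7.45%, 2.71% and 4.58% of genes were, in the same order. Quantile normalization moved the balance over all genes: it called 510 genes higher and 550 lower with RA (347 and 171 before), 1139 and 1404 with TNF (834 and 570), 1521 and 1886 with both (1450 and 924), 813 and 765 for both against TNF (570 and 336), and 1183 and 1182 for both against RA (952 and 568).

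The median log2 difference over the 8 members was 0.84 for RA, 0.57 for TNF and 1.86 for both, against -0.0031, -0.01 and 0.05 over all genes tested. No member had a called interaction in limma, where 2 had an unadjusted p under 0.05 and 0.266% of genes were called higher and 0.161% lower. Passing the brightness limit through a group in which a member was high favours a difference, so these counts are descriptions. The 3 comparisons with vehicle share their vehicle arrays.

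**Figure D3:**
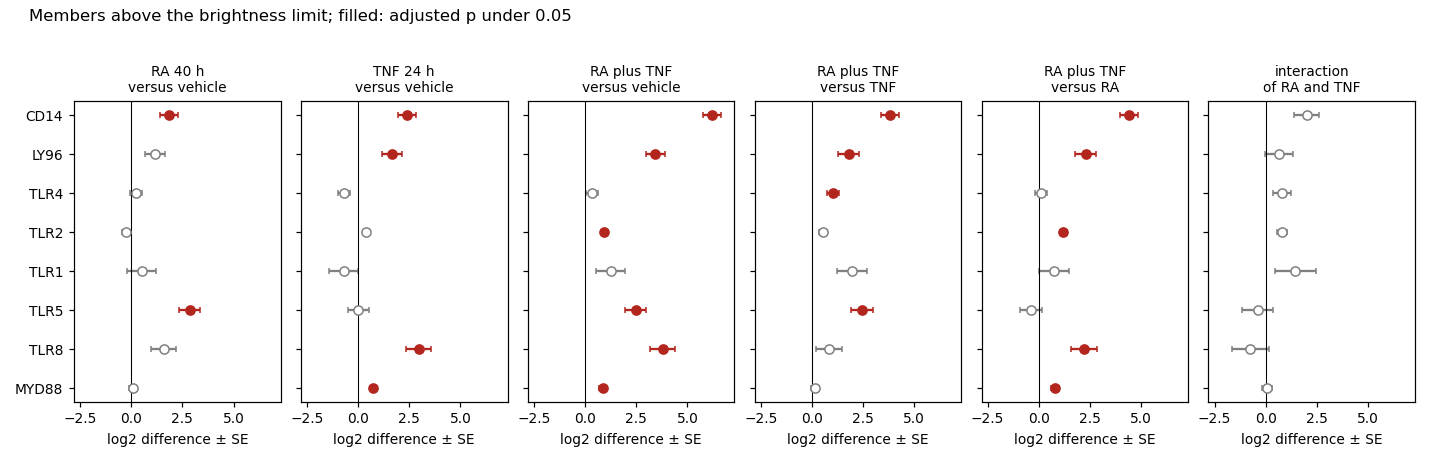
Log2 differences ± SE (limma) of the 8 members tested at 40 h in the 5 comparisons and the interaction, with filled red points for genes called at an adjusted p under 0.05. CD14 has the largest difference in 4 of the 6 panels, up to 6.22 for RA plus TNF against vehicle, and no point is filled for the interaction.

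The RA time course asked when each gene answered RA, within array set 2 and against 8 vehicle wells (5 at 16 h and 3 at 40 h). Its 2 wells with RA for 40 h and its 3 vehicle wells at 40 h are also in the tests at 40 h above. Its 40 h results are therefore not independent of those tests. No vehicle well was harvested at 2 h or 6 h, so RA and harvest time cannot be told apart there. TLR5 was high at the earliest time. Its signal was 82.3 and 60.7 units after 2 h of RA and 82.9 and 90.2 units after 6 h. After 16 h it was 69.0, 124 and 104 units, and the 40 h wells had 106 and 116 units, against 20.9 to 47.1 units in vehicle at 16 h and 5.1 to 24.8 in vehicle at 40 h. At each time all RA arrays lay above all 8 vehicle arrays.

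The TLR5 difference from vehicle was 2.25 ± 0.58 for 2 h of RA and was not called (limma adjusted p = 0.0591). It was 2.62 ± 0.58 for 6 h (0.00416), 2.22 ± 0.50 for 16 h (0.00458) and 2.73 ± 0.58 for 40 h (0.00231), all called. The 2 h difference was called with 16 units added (1.45, adjusted p = 0.0231) and when any of 5 single vehicle arrays was left out (adjusted p = 0.021 to 0.0465). The 6 h and 40 h calls did not hold without RA 6 h replicate 2 (adjusted p = 0.296) and RA 40 h replicate 5 (0.146), which leave 1 array at that time. Vehicle TLR5 itself was lower at 40 h than at 16 h by 1.54 ± 0.47 (limma unadjusted p = 0.00244, adjusted p = 0.9998), in a comparison that called 0 of 12507 genes with 409 at an unadjusted p under 0.05. The 4 time points share these vehicle arrays.

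**Figure D4:**
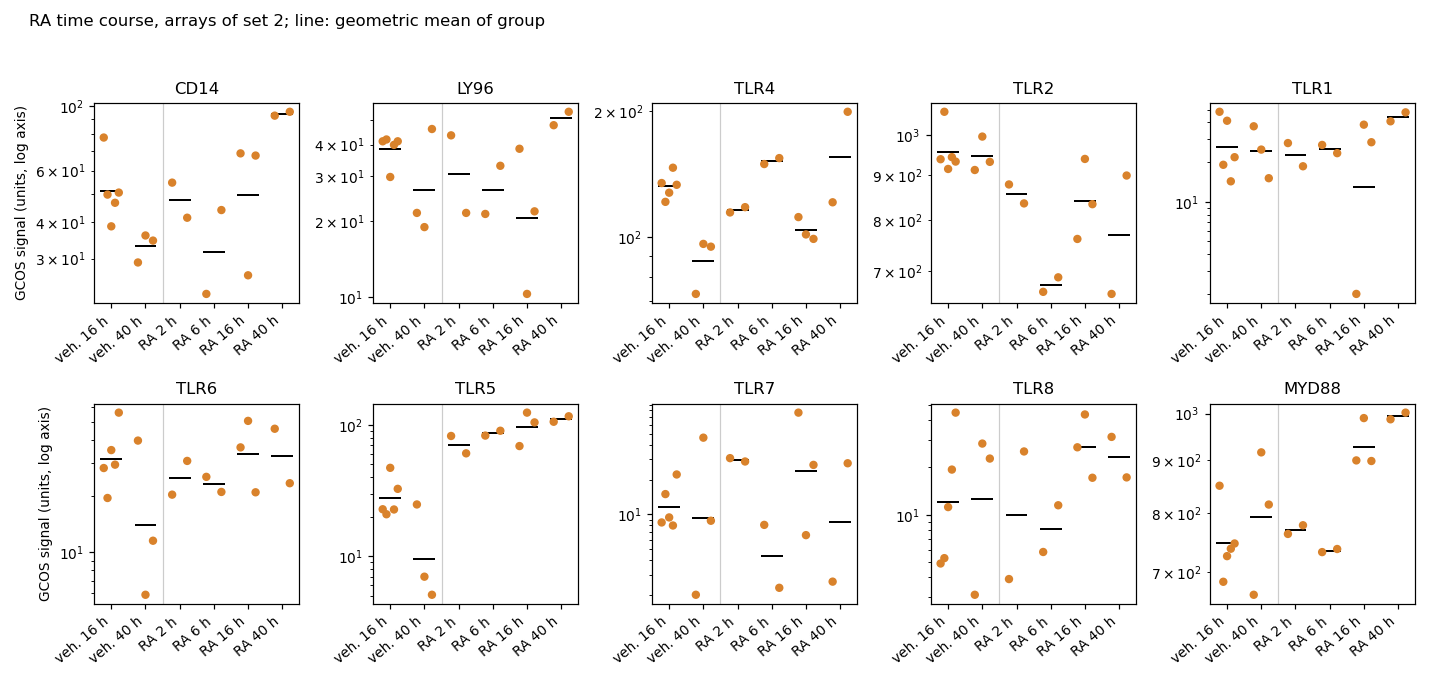
GCOS signal (units, log axis) of the 10 members on each array of set 2 in the RA time course, with vehicle at 16 h (n = 5) and 40 h (n = 3) to the left of the grey line and RA at 2 h, 6 h, 16 h and 40 h (n = 2, 2, 3 and 2) to its right. TLR5 lies above every vehicle array from 2 h on, at 60.7 units or more.

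CD14 did not follow that course. Its signal was 54.6 and 41.4 units after 2 h of RA and 22.7 and 44.0 units after 6 h. After 16 h it was 68.8, 26.3 and 67.6 units, and the 40 h wells had 92.6 and 95.5 units, against 29.1 to 77.9 units over the 8 vehicle arrays. Arrays overlapped with vehicle up to 16 h, and both 40 h arrays lay above all vehicle arrays. The difference from vehicle was 0.46 ± 0.46, -0.05 ± 0.46 and 0.05 ± 0.40 for the first 3 times and 1.27 ± 0.46 for 40 h, the last at an adjusted p of 0.132 in limma.

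The other members gave no call in the time course on the deposited values. In the 2 h and 6 h comparisons the median gene was itself shifted, by 0.31 and 0.38, after each array had been centred on its median, so early changes are read against these shifts. The 4 arrays at these times had a log2 ratio of the 3' to the 5' ACTB control probe sets of 0.126 to 0.299, where the 8 vehicle arrays had 0.19 to 0.996, and 1473 to 2964 probe sets at the lowest signal, where vehicle had 168 to 1398. By array number, these arrays came just after vehicle replicates 1 and 2 at 16 h. Those vehicle arrays had ratios of 0.19 and 0.271, with 168 and 1202 probe sets at the lowest signal. Whether runs of array numbers within set 2 shifted the values was not tested. Over the 12 arrays of set 1 that ratio was 0.906 to 1.89, with 0.906 to 1.032 for RA plus TNF and 1.329 to 1.435 for TNF. In set 2 these groups had 0.407 to 0.581 and 0.272 to 0.793. The part of these differences in the results was not tested. TLR4 read 150 and 154 units at 6 h against 72.9 to 147 in vehicle, a difference of 0.84 ± 0.29 (limma adjusted p = 0.0697), or 0.46 above the shift. In the fit of all bright probe sets its other probe sets were also higher at 6 h, and none was called. The differences were 1.19 ± 0.55 in 1552798_a_at (limma adjusted p = 0.168), 0.69 ± 0.29 in 221060_s_at (0.128) and 0.70 ± 0.47 in 232068_s_at (0.322). TLR2 read 662 and 688 units at 6 h against 913 to 1064 in vehicle, yet its difference was -0.09 ± 0.21 on the deposited values (adjusted p = 0.798) and 0.47 below the shift. At 2 h (836 and 879 units) and at 40 h its signals also lay below all vehicle signals, but not at 16 h. On the deposited log2 values TLR2 overlapped with vehicle at each time. It was called lower at 6 h after quantile normalization (-0.55, adjusted p = 0.00281) and with arrays centred on the genes tested (-0.50, 0.0139).

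MYD88 read 733 to 778 units at 2 h and 6 h, 899 to 990 at 16 h, and 987 and 1002 at 40 h, against 666 to 917 in vehicle. Its 40 h difference was 0.54 ± 0.20 (limma adjusted p = 0.129), called after quantile normalization (0.37, 0.0357) and with arrays centred on the genes tested (0.37, 0.048), as was its 16 h difference after quantile normalization (0.31, 0.0364). LY96 ranged from -0.85 ± 0.51 at 16 h to 0.76 ± 0.59 at 40 h, TLR1 from -1.11 ± 0.72 to 0.96 ± 0.84 at the same times, and TLR6 from 0.39 to 0.65, with adjusted p-values of 0.335 or more in limma. TLR8 was under the brightness limit here, with 3.9 to 25.3 units at 2 h and 17.2 to 43.5 at 16 h.

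In counts, 0 of 8 members were called higher at 2 h (0.848% of genes; 1 member had an unadjusted p under 0.05 in limma), and 1 of 8, TLR5, at 6 h (8.27%), 16 h (2.36%) and 40 h (4.5%). None was called lower, nor had one a lower value at an unadjusted p under 0.05 in limma, against 0.024%, 0.176%, 4.64% and 0.68% of genes called. After quantile normalization 79 genes were called higher and 28 lower at 2 h (106 and 3 before), 306 and 171 at 6 h (1034 and 22), 731 and 812 at 16 h (295 and 580), and 684 and 636 at 40 h (563 and 85). The median difference of the 8 members was 0.36, 0.38, -0.11 and 0.70 at the 4 times, and over all genes 0.31, 0.38, -0.17 and 0.15.

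The rest of the pathway was read from 71 listed genes in 7 groups, 56 of them bright enough to test at 40 h and 53 in the time course. With RA 7 of the 56 were called higher and 1 lower, with TNF 20 and 2, with both 25 and 2, and with both against TNF alone 7 and 2. The shares of all genes are those given for the members. The median difference over the 56 genes was 0.05 for RA, 0.27 for TNF, 0.49 for both and 0.16 for both against TNF.

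Among the other receptors, CD36, a scavenger receptor that works with TLR2 and TLR6, rose with RA (1.52 ± 0.21, limma adjusted p = 2.67e-06), by 0.92 in array set 1 alone, where it was not called (0.0629). Its mean signal was 190 units in vehicle, 557 with RA, 243 with TNF and 1419 with both, and it exceeded TNF alone by 2.62 ± 0.22 with both (adjusted p = 4.52e-11). CD180, a TLR4 relative that pairs with LY86, was lower with TNF (-1.33, adjusted p = 0.0192) and higher with both than with TNF (1.67 ± 0.40, 0.00542). The TNF call on CD180 was lost without vehicle replicate 1, TNF replicate 2 or TNF replicate 5 (adjusted p up to 0.101), in each set alone and without the array set in the model (0.0598), and the other call in set 1 alone (0.106). Of 8 listed receptors 5 were tested. CD36 was also called in the time course at 6 h (0.87), where no call remained under any of 7 other settings. It was called there at 16 h (1.17), lost under the replicate block (0.0767), and at 40 h (2.12), on wells shared with the tests at 40 h.

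Among the chaperones that bring receptors to their membranes, 1 of 5 was called with RA, the cargo receptor LMAN1 (0.52 ± 0.16, limma adjusted p = 0.048), and that call was lost in 15 of 21 fits without 1 array and under 6 of 8 other settings (adjusted p up to 0.769). Another, UNC93B1, which carries TLR7 and TLR8 to endosomes, was called with TNF (0.84, adjusted p = 0.0284), but not in 5 of the 21 fits without 1 array, without the array set in the model (0.376) or in set 1 alone (0.283). Of the adaptors other than MYD88, 2 of 5 were tested, and TIRAP, which links TLR2 and TLR4 to MYD88, was called with both agents (0.71, 0.021), a call lost under 5 of 8 other settings (up to 0.281), both sets alone among them. Of 17 kinases and ubiquitin ligases tested, 1 was called higher with RA and 3 higher and 1 lower with TNF. IKBKE, a kinase that activates interferon regulatory factors, rose with RA (1.46 ± 0.24, 6.57e-05), with TNF (1.34, 0.000129) and with both (2.54 ± 0.24, 2.45e-10). PELI2 was the gene called lower with TNF (-1.12, 0.0014), short of a call in set 2 alone (0.0565).

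Among the brakes of the pathway, SIGIRR, a receptor-like inhibitor of interleukin 1 and Toll-like receptor signalling, rose with RA (1.09 ± 0.18, limma adjusted p = 6.04e-05), and was called at 6 h, 16 h and 40 h of the time course (1.31, 1.07 and 1.29). The RA call at 40 h was lost without the array set in the model (0.136) and in set 1 alone (0.0568). SIGIRR was higher with both agents than with TNF alone (0.96 ± 0.19, 0.00052), a call lost without the array set (0.132) and in set 2 alone (0.101). TNFAIP3, the ubiquitin-editing enzyme A20, rose with TNF by 3.69 ± 0.17 (12.9-fold, 1.08e-17), from a mean of 243 to 3106 units. With TNF 4 of the 11 brakes tested were called higher, namely TNFAIP3, ATF3, CYLD and TNIP1. Of these, ATF3 was not called in either set alone (0.0542 and 0.18), CYLD in set 1 alone (0.0906) or TNIP1 with the mean of its bright probe sets (0.387).

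Of 10 transcription factors and their inhibitors, 6 rose with TNF, among them RELB (2.50 ± 0.23), NFKB2 (3.24 ± 0.42) and NFKBIA (2.98 ± 0.17), the inhibitor of NF-kB, with limma adjusted p-values of 3.95e-07 or less. NFKBIA fell with RA by 0.92 ± 0.17 (0.0003), but this direction depends on the probe set, since the mean over all its bright probe sets was 0.57 higher. It was not called in set 2 alone (0.122). REL was called with RA (0.66 ± 0.16, 0.00825), but not with the mean of its bright probe sets (0.145), without the array set in the model (0.107) or in set 1 or set 2 alone (0.151 in each). IRF7, which drives type I interferon after TLR7 and TLR8, rose with TNF (2.08 ± 0.22, 7.01e-09) and was lower with both than with TNF alone (-1.38 ± 0.23, 5.38e-05).

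Of 11 target cytokines listed, 6 were tested at 40 h and all 6 were called higher with TNF. CCL4 and CXCL10 had mean signals of 8.87 and 14.1 units in vehicle, under the array medians, and passed the brightness limit through the groups in which they are high, so the count of 6 is a description. The neutrophil chemokine CXCL8 had a mean signal of 177 units in vehicle, 420 with RA, 663 with TNF and 5395 with both, and exceeded TNF alone by 3.14 ± 0.34 with both (8.82-fold, limma adjusted p = 1.29e-08). IL1B read 64.1, 123, 290 and 2211 units in the same order and exceeded TNF alone by 3.01 ± 0.30 (8.07-fold, 3.02e-09), and CCL4 exceeded it by 2.58 ± 0.52 (0.000731; not called in set 2 alone, 0.0975). The TNF gene itself went the other way, from 509 units with TNF to 132 with both (-2.29 ± 0.48, 0.00115). CXCL10 rose by 7.49 ± 0.51 with TNF (1.93e-13) from vehicle signals under the array medians.

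**Figure D5:**
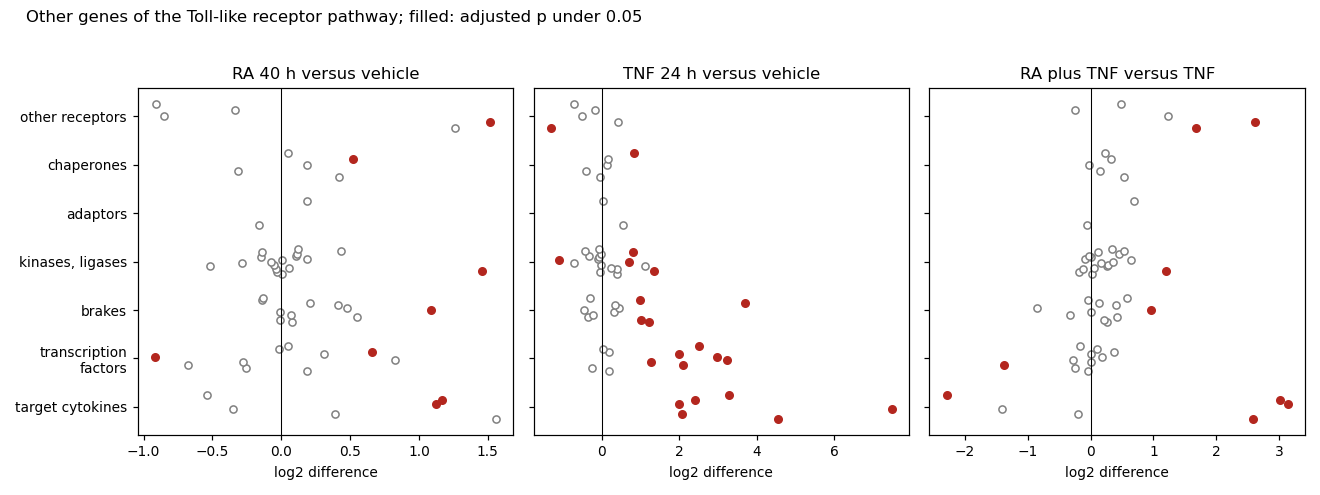
Log2 differences (limma) of the 56 other pathway genes tested, 1 point per gene in 7 lists, for RA against vehicle, TNF against vehicle and RA plus TNF against TNF, with filled red points for genes called at an adjusted p under 0.05. The 6 target cytokines are all filled and above 0 with TNF, whereas with RA plus TNF against TNF 3 are filled above 0 and 1, the TNF gene, is filled below.

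Genes with the most similar pattern were found by the root mean square distance over 6 log2 differences from vehicle (RA at 2 h, 6 h, 16 h and 40 h, TNF, and both), among 12029 genes tested in both experiments. These differences share vehicle arrays, and the distances are a description. Nearest to CD14 were TDO2 (distance 0.64), IL1B (0.65) and TNFRSF9 (0.75), which differed from vehicle by 5.73, 5.42 and 5.12 with both agents. Nearest to TLR5 were NDRG1 (0.32), SLC12A4 (0.37) and CCL24 (0.42), with RA differences at 40 h of 2.78, 2.69 and 2.56. Nearest to LY96 were NRP1 (0.35), SLC45A3 (0.46) and DMXL2 (0.57), with 2.90, 2.72 and 2.61 for both agents.

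Of the cell type markers, 7 monocytic, 2 lymphocyte, 2 erythroid and 1 fibroblast gene were bright enough to test. ITGAM rose with RA (1.19 ± 0.17, limma adjusted p = 3.34e-06) and with TNF (0.78, 0.00108), CSF1R with RA (0.67 ± 0.17, 0.0102) and with both against TNF (1.45 ± 0.17, 9.2e-08), and ITGAX with RA (1.01 ± 0.25, 0.00922). With both agents against vehicle ITGAM (1.21), CSF1R (1.64) and SPI1 (0.99 ± 0.22, 0.000955) were called. LYZ (-0.15 with RA, -0.43 with TNF and -0.20 with both), CD4 (-0.03, -0.01 and 0.10) and MPO (-0.29, -1.42 and -1.08) were not called in these comparisons. NKG7, a granule protein of cytotoxic lymphocytes, was called with TNF (1.09 ± 0.25, 0.00249) and with both (1.14 ± 0.25, 0.000934), while the B cell gene CD79A (-0.06 and -0.35), EPOR, HBB and COL1A1 were not. The part of these markers in the changes of CD14 and the receptors was not tested.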

How the data were processed

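RNA of 33 THP-1 wells was measured on Affymetrix arrays. Signals were made with GCOS, per the submitters' processing notes, which name no version. The deposited values are log2 ratios of a signal to its array's median, a scale inferred from the values: signals recovered as 2 to the power of each value minus the lowest of its array fell on steps of 0.1 units (within 0.006 units, for 100% of signals under 8 units). Their trimmed mean was 150 units on every array (2% off each end), and between 13 and 2964 probe sets of an array had the lowest signal of 1 unit. The number of arrays limits the precision, and the sizes of dim genes also depend on how low signals are handled.

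Of 54675 probe sets, 62 were controls, 1801 had several gene symbols and 11721 had no symbol, and none of these was used. Each gene took its probe set of highest mean, and genes with a mean linear value under 0.882 (40 h) or 0.891 (time course) of the array median were removed, which left 12398 and 12507 genes. Deposited log2 values entered limma 3.58.1 (R 4.3.3; lmFit, eBayes with trend, Benjamini-Hochberg): 21 arrays at 40 h with the array set as covariate (16 residual degrees of freedom), and 17 arrays of set 2 for the time course (12). All wells are of 1 cell line, so p-values measure the spread between its wells. Log2 changes of 1, 2 and 4 were put into simulated data of RA plus TNF against vehicle (12398 genes). They were recovered in 62.7%, 83.6% and 98.5% of cases, and 5.78% of calls were false. For RA at 2 h (12507 genes) the shares were 46.3%, 83.6% and 98.5%, with 3.8% false. Whether these shares hold for the measured arrays, where the median gene at 2 h was shifted by 0.31, was not tested. Alternatives were quantile normalization, no filter, 16 units added, the mean of all bright probe sets, the replicate number as a block, each array left out, each array set alone or no set covariate, centring on the genes tested, and vehicle at 16 h as the only reference.

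The members and lists were chosen with earlier results of these data known. The named genes were all members, up to 10 called pathway genes of smallest adjusted p in each of 5 comparisons (RA, TNF and both against vehicle, both against TNF, and RA at 16 h), and the 3 nearest genes of CD14, TLR5 and LY96. UNC93B1, TIRAP, PELI2, ATF3, CYLD and TNIP1 were named after their values were seen.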

Additional observations from a re-analysis of the deposited data

Results flagged for a closer look

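Among 50 groups of 4 or more arrays, 1 per member and treatment, 4 held an array that stood apart from the rest of its group on the log2 scale, and chance gives about 1 in 20. Vehicle replicate 3 at 40 h read 750.1 units for TLR2, where the other 5 arrays read 912.7 to 996.7 units. RA plus TNF replicate 3 read 2.801 units for TLR6, and TNF replicate 2 read 5.4 units for TLR6, both under the other arrays of their groups. RA replicate 3 at 40 h read 9.7 units for TLR8, where the others read 17.3 to 40.11 units.

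The effect of RA differed with and without TNF in 3 pathway genes by the interaction test of limma. The interaction was 1.097 for NFKBIA (adjusted p = 0.0278), 2.015 for CXCL8 (0.037) and 1.847 for IL1B (0.0322), each on the log2 scale. These calls were lost in 11 (NFKBIA), 13 (CXCL8) and 12 (IL1B) of 21 fits without 1 array, and under 3, 4 and 3 of 8 other settings, no array set covariate and set 2 alone among them for each. For NFKBIA the mean of its bright probe sets gave -0.669 (limma adjusted p = 0.748), so the direction of its interaction depends on the probe set.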

How the results depend on the processing

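The count of members called at 40 h moved by more than 1.5 times, or from 0, under these settings. Without the array set in the model it was 1 for RA (2 as designed), 2 for TNF (4) and 2 for RA plus TNF against TNF (4). In array set 2 alone it was 1 for TNF, 2 for both against TNF and 3 for both against RA (5), and in set 1 alone it was 1 for both against TNF; these fits hold fewer arrays. It moved by less after quantile normalization (6 for TNF with TLR2 and TLR4 added, 5 for both against TNF with TLR2 added), with 16 units added (5 for both against TNF), with no brightness filter (3 for both against TNF) and in set 1 alone (4 for both against RA). For the interaction it was 1 after quantile normalization and 1 with 16 units added (0 as designed). In the time course it was 1 at 2 h with 16 units added (0), 2 at 6 h, 2 at 16 h and 2 at 40 h after quantile normalization (1 each), and 2 at 6 h and 2 at 40 h with arrays centred on the genes tested. NFKBIA turned from lower to higher with the mean of its bright probe sets, to 0.567 with RA at 40 h and to 0.183 at 16 h. Its interaction turned from 1.097 to -0.669 under that setting. No called value of a member reversed under any alternative run.

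When each array was left out in turn, the members called ranged from 2 to 2 for RA, 3 to 4 for TNF, 6 to 6 for both, 3 to 5 for both against TNF, 4 to 5 for both against RA, and 0 to 1 for the interaction, and in the time course from 0 to 1 at 2 h, 0 to 2 at 6 h, 1 to 1 at 16 h and 0 to 1 at 40 h. Left-out fits at 2 h, 6 h and 40 h can leave 1 array at that time, whose spread is taken from the other groups.

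At 40 h, residuals of arrays with the same replicate number had a median correlation of -0.06 (0 of 30 pairs over 0.1). Arrays with different numbers had -0.06 (0 of 54). In the time course the medians were 0.04 for the same number (4 of 17 pairs over 0.1) and -0.01 for different numbers (3 of 85). Arrays that correlated best with an array of their own number were 11 of 20 and 7 of 14. Same-number pairs thus lay somewhat higher in the time course, and whether the numbers pair the wells was not tested. The share to be had without pairing was not worked out. By array number, vehicle replicate 6 at 40 h came just before replicate 5 of RA, TNF and both. This check and the replicate block therefore do not cover runs of array numbers within a set. The replicate block gave 0 members at 16 h (TLR5 1.58, limma adjusted p = 0.0701) and otherwise the designed counts; over all genes it called 53 at 2 h (109 as designed) and 371 at 6 h (1056).

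Counts over all genes moved by more than 1.5 times as follows. Quantile normalization called 1060 genes for RA (518 as designed), 2543 for TNF (1404), 1578 for both against TNF (906), 2365 for both against RA (1520), 178 for the interaction (53), 477 at 6 h, 1543 at 16 h (875) and 1320 at 40 h of the time course (648). Without the set covariate 226, 652, 402, 797 and 7 were called for RA, TNF, both against TNF, both against RA and the interaction, and 1302 for both against vehicle (2374). Array set 1 alone called 249, 648 and 1348 for RA, TNF and both, and set 2 alone called 888 for TNF, 780 for both against RA and 16 for the interaction. With 16 units added the interaction count was 119, and with the mean of bright probe sets it was 29. Centring on the genes tested called 471 at 6 h, 1371 at 16 h and 1257 at 40 h, and vehicle at 16 h as the only reference called 642 at 6 h. Leaving out 1 array moved these counts to 28 to 80 for the interaction, and to 43 to 156, 147 to 1925, 450 to 1667 and 266 to 732 at the 4 times of the time course.

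Members under the array medians limit what can be read: TLR7 was tested in neither experiment, TLR6 only in the time course, TLR8 only at 40 h, and the fold sizes of CD14, LY96, TLR5 and TLR8 against vehicle depend on how low signals are treated.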
